A study of Mus musculus with 2 samples.

Results

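Fibroblast growth factor (FGF) signalling in the embryonic mouse face was described through 39 genes: the 22 FGF genes, the Sprouty, Spred and other feedback inhibitors, the FGF-responsive ETS transcription factors, and the proteins that bind FGFs or dock onto their receptors. Members were chosen by gene symbol alone, and 39 of 39 symbols had a row in the gene tables of GENCODE release M21, which hold 22028 protein-coding genes among 55536 genes. The material was facial prominence tissue of healthy B6NCrl embryos at 12.5 days, pooled over both sexes, with 120 embryos in replicate 1 and 88 in replicate 2. For each polyA plus RNA-seq library, 10 ng of RNA were primed with oligo-dT, ERCC control RNAs were spiked in, and Nextera tagmentation cut the material. Both libraries belong to 1 group, so no condition was compared. The labels give no separate prominences, and in such bulk tissue fewer cells of a type and less RNA per cell cannot be told apart.

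FGFs are secreted proteins that bind receptor tyrosine kinases with heparan sulfate, or with a Klotho protein for the endocrine members, and the docking protein Frs2 then links the receptor to the RAS and ERK pathway. ERK signalling induces the ETS factors Etv4 and Etv5 and also its own brakes, among them the Sprouty proteins and the ERK phosphatase Dusp6. In the face, ectodermal Fgf8 supports survival and patterning of the arch mesenchyme, and mesenchymal Fgf10 and Fgf7 signal back to the epithelium.

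Levels are the deposited TPM values (a length-corrected share of all transcripts), with the mean ± SD over n = 2, and a gene that reached a TPM of 1 in each library is called detected. Expected counts, the estimated reads per gene, summed to 28705073 in replicate 1 and 41092194 in replicate 2, of which spike-ins took 2.85% and 3.10%. A count of 3 corresponds to 0.0495 TPM in replicate 1 and 0.0364 TPM in replicate 2 at the median member length. The labelled tissue carried its defining markers: 7 of 7 mesenchyme genes and 10 of 10 epithelial genes were detected, with mesenchyme sums of 1699 TPM in replicate 1 and 1705 TPM in replicate 2 and epithelial sums of 428.6 and 427.4 TPM. Markers of neurons, muscle, cartilage and blood were detected in full as well, and 4 of 6 lens genes and 6 of 6 retina genes were detected. The labels call the libraries biological replicates from separate pools. With 2 libraries, an exact sign-flip test cannot go below p = 0.5, so values are described without p-values.

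The inhibitors, targets, adaptors and binding proteins were expressed throughout, whereas the members that were not detected were all secreted ligands. Of the 39 members, 30 were detected, against 60.7% of all protein-coding genes. All 17 members outside the FGF genes and 4 of 4 intracellular FGFs were detected, but only 9 of 18 secreted ligands were. The median level was 10.3 TPM over the members outside the FGF genes and 1.47 TPM over the secreted ligands, beside 4.79 TPM over all protein-coding genes. Dusp6 led the order, followed by Spry2, Fgfrl1, Etv5 and Fgf13, and the ranges of these 5 over the libraries did not overlap one another. Further down, neighbours were often inseparable: 25 of 38 neighbouring pairs in the order had overlapping ranges.

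**Figure D1:**
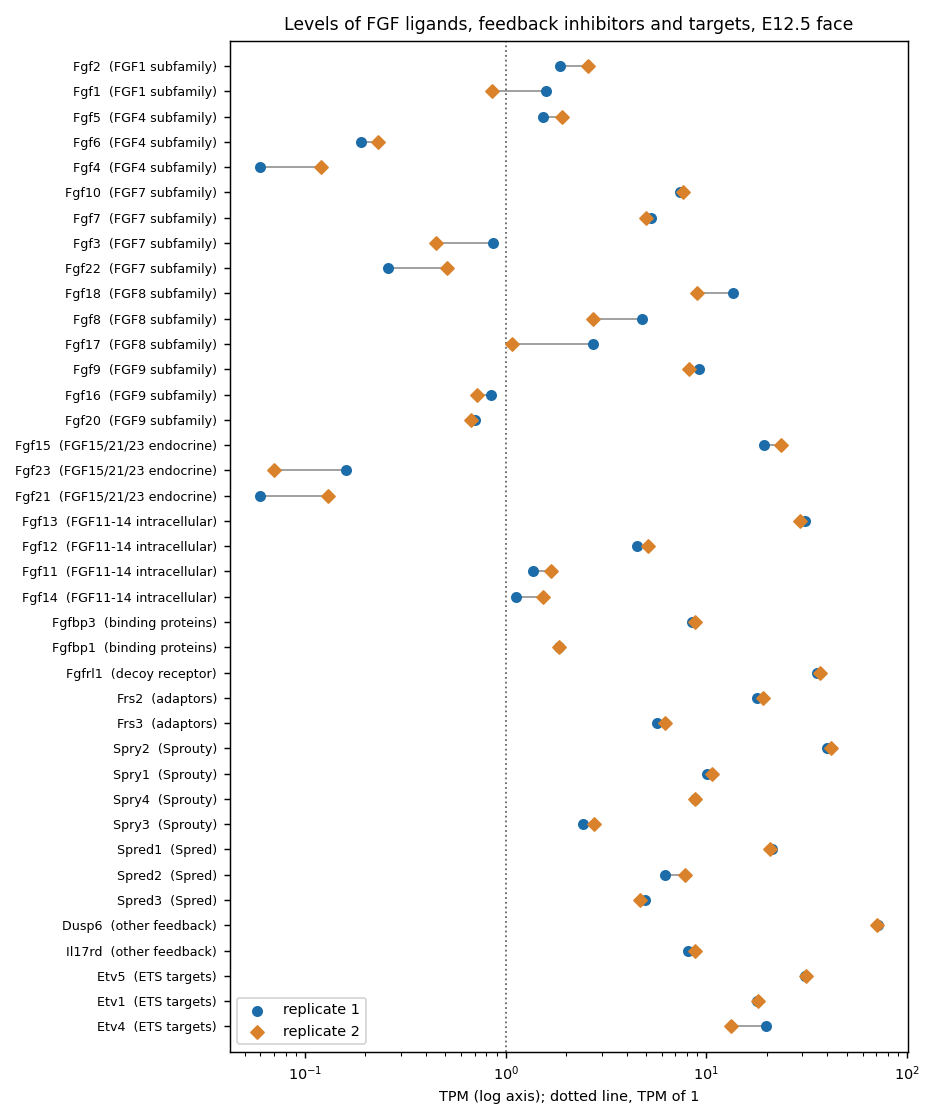
TPM of the 39 members on a log axis, grouped by role; circles are replicate 1, diamonds replicate 2, and the dotted line marks a TPM of 1. Members outside the FGF genes all lie right of the line, with Dusp6 furthest right near 71 TPM, while 8 secreted ligands lie left of it in both libraries.

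Among the secreted ligands, Fgf15, the mouse counterpart of human FGF19, was highest. It had 19.24 TPM in replicate 1, against 23.53 TPM in replicate 2 (21.4 ± 3.03), so it sat at about the middle of all detected protein-coding genes, above 49.8% of them. Its gene shares 761 exonic bases with the antisense gene Gm26793, which was at 0.45 and 0.42 TPM. No source used here states whether the counting used strand.

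The FGF8 subfamily came next and was detected in 3 of 3 members. Fgf18, a ligand known from bone and cartilage growth, had 13.52 TPM in replicate 1 and 9.01 TPM in replicate 2 (11.3 ± 3.19). Fgf8, the ectodermal ligand of the arches, had 4.76 and 2.71 TPM (3.74 ± 1.45), and Fgf17, its close relative, had 2.71 and 1.08 TPM (1.90 ± 1.15). Each of the 3 was higher in replicate 1.

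Fgf8 is annotated with a coding stretch that some transcripts include and others skip, and both forms are printed because the abundance of the gene was split by them. The stretch is chr19:45741647-45741679, on the minus strand of mm10 and 33 bases long, so the reading frame is kept. Coding sequence from GENCODE M21 is given 5′ to 3′ with 12 bases on each side, and capitals mark the included stretch.

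Fgf8-206: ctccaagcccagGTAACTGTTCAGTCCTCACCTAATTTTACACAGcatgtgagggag

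Fgf8-205: ctccaagcccagcatgtgagggag

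The Fgf8 forms with the stretch carried 31.1% of the gene's abundance in replicate 1 and 43.4% in replicate 2, and the near full-length forms without it 55.7% and 56.6%. Fgf8 has 6 annotated coding transcripts, of which Fgf8-203 had 13.3% in replicate 1 and 0% in replicate 2. The gene rested on 69 and 66 reads, and the leading transcript differed: Fgf8-204 in replicate 1 at 25.4% and Fgf8-202 in replicate 2 at 32.5%. Fgf17 had the same leading transcript, Fgf17-201, in both libraries.

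Fgf9, known for its part in palate growth, had 9.23 TPM in replicate 1 against 8.19 TPM in replicate 2. Its subfamily relatives Fgf16 (0.84 and 0.72 TPM) and Fgf20 (0.70 and 0.67 TPM) stayed below the minimum in both libraries. Of the FGF7 subfamily, whose members bind epithelial receptor isoforms, Fgf10 (7.39 and 7.68 TPM) and Fgf7 (5.31 and 4.97 TPM) were detected. Both were steady across the libraries, unlike their low relatives: Fgf3, known from ear and tooth development, had 0.86 TPM in replicate 1 and 0.45 TPM in replicate 2, and Fgf22 had 0.26 and 0.51 TPM.

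The smaller ligand groups contributed little. Fgf2, the basic FGF of many mesenchymal cells, had 1.87 TPM in replicate 1 against 2.58 TPM in replicate 2, and Fgf5, a regulator of the hair cycle, had 1.54 and 1.91 TPM. Fgf1, the acidic FGF, passed the minimum only in replicate 1, at 1.58 against 0.85 TPM in replicate 2. The counts behind that gap were 40 and 53, a depth-scaled ratio close to 1, and the deposited effective lengths were 1376 and 2398 bases. The gap in TPM thus appeared in the assigned length and not in the reads, and the leading transcript was Fgf1-205 in replicate 1 and Fgf1-201 in replicate 2. Fgf4 (0.06 and 0.12 TPM) and Fgf6 (0.19 and 0.23 TPM) were near the floor, as were the hormones Fgf21 of liver (0.06 and 0.13 TPM) and Fgf23 of bone (0.16 and 0.07 TPM). Fgf21 rested on 1 and 3 counts, and Fgf23 on 5 and 3.

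Summed over subfamilies, the endocrine group, nearly all Fgf15, reached 19.46 TPM in replicate 1, against 23.73 TPM in replicate 2. The FGF8 subfamily summed to 20.99 and 12.80 TPM, the FGF7 subfamily to 13.82 and 13.61 TPM and the FGF9 subfamily to 10.77 and 9.58 TPM. The FGF1 subfamily summed to 3.45 and 3.43 TPM and the FGF4 subfamily to 1.79 and 2.26 TPM. The largest share of secreted ligand TPM thus belonged to the FGF8 subfamily in replicate 1, at 29.9%, and to the endocrine group in replicate 2, at 36.3%.

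The intracellular FGFs, which are not secreted and bind voltage-gated sodium channels, held one of the highest members. Fgf13, which also binds microtubules, had 30.82 TPM in replicate 1 and 29.38 TPM in replicate 2 (30.1 ± 1.02), more than any secreted ligand. Fgf12 followed at 4.49 and 5.14 TPM, with Fgf11 at 1.36 and 1.69 TPM and Fgf14 at 1.13 and 1.54 TPM. The 4 genes summed to 37.80 and 37.75 TPM.

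Fgf13 has several alternative first exons, and 2 of its start sites carried most of the signal. Fgf13-202, with a coding length of 576 bases, had 18.99 TPM in replicate 1 and 15.50 TPM in replicate 2, and Fgf13-201, with a coding length of 735 bases, had 7.22 and 7.58 TPM. The bases just upstream of these 2 starts, from RefSeq on GRCm38.p6 and cut to the 174 bases before each start in release M21, are shown because the starts differ in base composition. Both lie on the minus strand of the X chromosome and are written 5′ to 3′ in the direction of transcription, with CpG pairs in capitals. The first is chrX:59166165-59166338 and the second chrX:59134437-59134610.

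Fgf13-202: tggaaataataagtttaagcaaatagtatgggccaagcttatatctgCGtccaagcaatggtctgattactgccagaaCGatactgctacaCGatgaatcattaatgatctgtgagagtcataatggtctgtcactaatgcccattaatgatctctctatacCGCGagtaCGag

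Fgf13-201: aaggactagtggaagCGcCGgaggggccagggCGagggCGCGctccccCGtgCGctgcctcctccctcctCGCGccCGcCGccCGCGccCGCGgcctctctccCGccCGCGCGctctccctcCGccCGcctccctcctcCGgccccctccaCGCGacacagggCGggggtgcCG

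The stretch before the more abundant transcript held 6 CpG pairs and was 40.2% G or C. The stretch before Fgf13-201 held 26 CpG pairs and was 81.0% G or C. Over the 174 bases just before the RefSeq start of 32851 promoters the median was 4 CpG pairs. Of these promoters, 40.2% held more than 6, and 2.59% held more than 26. For Fgf13-202 the RefSeq start lies downstream of the start in release M21. Its stretch thus lies further from the RefSeq start than the bases it is set against. The transcript with the higher TPM in both libraries was the one whose upstream stretch held fewer CpG pairs of the pair printed.

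Receptors and partners outside the 39 members set the context for these ligands. All 4 receptor genes were detected, with Fgfr1 at 123.65 TPM in replicate 1, against 121.42 TPM in replicate 2, Fgfr2 at 96.18 and 94.92 TPM, Fgfr3 at 15.30 and 10.46 TPM and Fgfr4 at 3.75 and 3.96 TPM. The Klotho co-receptors that endocrine FGFs use were near the floor, Kl at 0.05 and 0.11 TPM and Klb at 0.12 and 0.08 TPM. The FLRT membrane proteins, which bind FGF receptors, were detected in 3 of 3 members: Flrt3 had 60.66 and 67.19 TPM, Flrt2 had 50.87 and 70.62 TPM and Flrt1 had 5.31 and 5.15 TPM.

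Proteins that act on the ligand or at the receptor were led by Fgfrl1, the receptor-like protein that lacks a kinase domain. It had 35.68 TPM in replicate 1, against 36.57 TPM in replicate 2 (36.1 ± 0.629). The carrier proteins that release FGFs from the matrix were lower, Fgfbp3 at 8.46 and 8.78 TPM and Fgfbp1 at 1.84 TPM in both. The docking protein Frs2 was at 17.94 and 19.04 TPM, and its relative Frs3 at 5.70 and 6.24 TPM. All of these stayed close between the pools.

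From Frs2 onward, transcripts of every listed gene of the relay to ERK were detected, where 60.7% of all protein-coding genes were. Activity of the relay was not measured. Of 20 genes from Grb2 to the ERK kinases, 20 were detected with a median of 73.5 TPM, led by the kinase Map2k2 (187.00 TPM in replicate 1, 179.41 TPM in replicate 2), with the adaptor Crk at 105.77 and 111.16 TPM. The exchange factor Sos1 (6.0 and 5.0 TPM) and the docking protein Gab2 (6.04 and 5.06 TPM) were lowest.

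Feedback inhibitors spanned a wide range of levels within each family. Dusp6, the phosphatase that inactivates ERK, had 71.19 TPM in replicate 1 and 70.89 TPM in replicate 2 (71.0 ± 0.212), above 81.8% of detected protein-coding genes. Spry2, an inhibitor of receptor to RAS signalling, had 39.84 and 41.80 TPM (40.8 ± 1.39). Its paralogs were lower: Spry1 had 10.03 and 10.63 TPM, Spry4 had 8.75 and 8.76 TPM and Spry3 had 2.44 and 2.76 TPM. Spry3 lies on the unplaced scaffold GL456233.1 of this assembly.

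Spred1, a membrane inhibitor that brings neurofibromin to RAS, had 21.20 TPM in replicate 1 and 20.64 TPM in replicate 2. Spred2 had 6.19 and 7.82 TPM and Spred3 had 4.93 and 4.65 TPM, so each of the Sprouty and Spred families had 1 member well above the rest. Il17rd, also known as Sef, which restrains FGF signalling at the membrane, had 8.09 and 8.72 TPM. Of 9 further brakes on the pathway, 9 were detected with a median of 16.7 TPM. The RAS GTPase activator Rasa1 (47.38 and 44.38 TPM), the ERK phosphatase Dusp7 (46.49 and 39.98 TPM) and the EGF receptor inhibitor Errfi1 (21.86 and 21.02 TPM) were highest, while Nf1, which encodes neurofibromin (7.07 and 7.28 TPM), and the phosphatase Dusp5 (3.50 and 4.08 TPM) were lowest.

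Target transcription factors were all well detected. Etv5 had 31.02 TPM in replicate 1 and 31.14 TPM in replicate 2 (31.1 ± 0.0849), and Etv1 had 17.93 and 18.13 TPM (18.03 ± 0.141). Etv4 had 19.80 and 13.25 TPM (16.5 ± 4.63), the widest gap among the ETS genes. Part of that gap lay in the assigned length, as the deposited effective lengths were 1679 and 1914 bases. The same held for the gap of Fgf8, at 786 and 932 bases. Of 8 early response genes, 7 were detected, led by the cyclin Ccnd1 (103.24 and 122.03 TPM), Ier2 (74.18 and 75.79 TPM) and Myc (44.52 and 46.17 TPM). Fos was at 1.81 and 2.76 TPM and Fosl1 at 0.00 and 0.10 TPM. By TPM or by counts scaled to genes, 0 of these 8 were higher in replicate 1, but 5 of 8 were when scaled on the spike-ins.

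The pools were next set against each other, with ratios of replicate 1 over replicate 2. On the log2(TPM + 1) scale, which understates differences of low genes, 0 of 39 members differed by more than 1, against 0.182% of all protein-coding genes. Within 0.25 lay 22 of the 30 detected members, a count with no share over all genes beside it. The median log2 ratio was -0.03 over the members and 0 over all protein-coding genes. Counts gave a finer view: each ratio of rounded expected counts, scaled to the summed counts of genes, carries an exact conditional (Clopper-Pearson) 95% interval. The interval covers counting error alone and leaves out variation between pools and in the assignment of reads to genes. No molecular identifiers are recorded that would mark PCR copies, so such copies count as separate reads. The interval compares these libraries and not conditions.

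Of 36 members with a summed count of at least 20, the interval lay above 1 in 5 and below 1 in 4. Among all protein-coding genes, 14.7% lay above and 14.1% below, so the members as a set, at 13.9% and 11.1%, differed about as often as other genes. Scaled on the spike-ins, which shifts every log2 count ratio up by 0.13, the split was 14 above and 2 below, or 38.9% and 5.56% of these members, against 48.5% and 3.36% of all protein-coding genes. With the scaling on genes, higher in replicate 1 were all 3 genes of the FGF8 subfamily, Fgf3 and Etv4. Fgf17 had 76 counts in replicate 1 and 45 in replicate 2, a ratio of 2.41 (1.65 to 3.57). Fgf18 had 246 and 231 counts, a ratio of 1.52 (1.27 to 1.83), and Fgf8 had 69 and 66 counts, a ratio of 1.49 (1.05 to 2.12).

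The summed counts of the subfamily gave a ratio of 1.63 (1.41 to 1.89). Etv4 had 613 counts in replicate 1 and 663 in replicate 2, a ratio of 1.32 (1.18 to 1.48), and Fgf3, with 35 and 24 counts, a ratio of 2.08 (1.20 to 3.66). Dusp6, Etv5 and Spry2, which share the role of ERK-induced genes with Etv4, had intervals that held 1, although those of Dusp6 and Etv5 lay above 1 when scaled on the spike-ins.

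Lower in replicate 1 were Fgf15, Fgf22, Spred2 and Il17rd. Fgf15 had 588 counts in replicate 1 and 1030 in replicate 2, a ratio of 0.815 (0.735 to 0.903). Il17rd, with 890 and 1456 counts, had a ratio of 0.873 (0.802 to 0.949), and Spred2, with 395 and 653 counts, a ratio of 0.864 (0.760 to 0.980). Fgf22 rested on 4 and 21 counts (ratio 0.272, 0.068 to 0.806). Its gene shares 82 exonic bases with the opposite-strand gene Rnf126, which was at 87.27 and 85.40 TPM. In release M4, Fgf22 had 2 and 4 counts, together under the minimum for an interval. Scaled on the spike-ins, the intervals of Spred2 and Il17rd held 1, while those of Fgf15 and of Fgf22 stayed below 1. This scaling raises every ratio, so the intervals of the 5 higher members could only move further above 1.

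**Figure D2:**
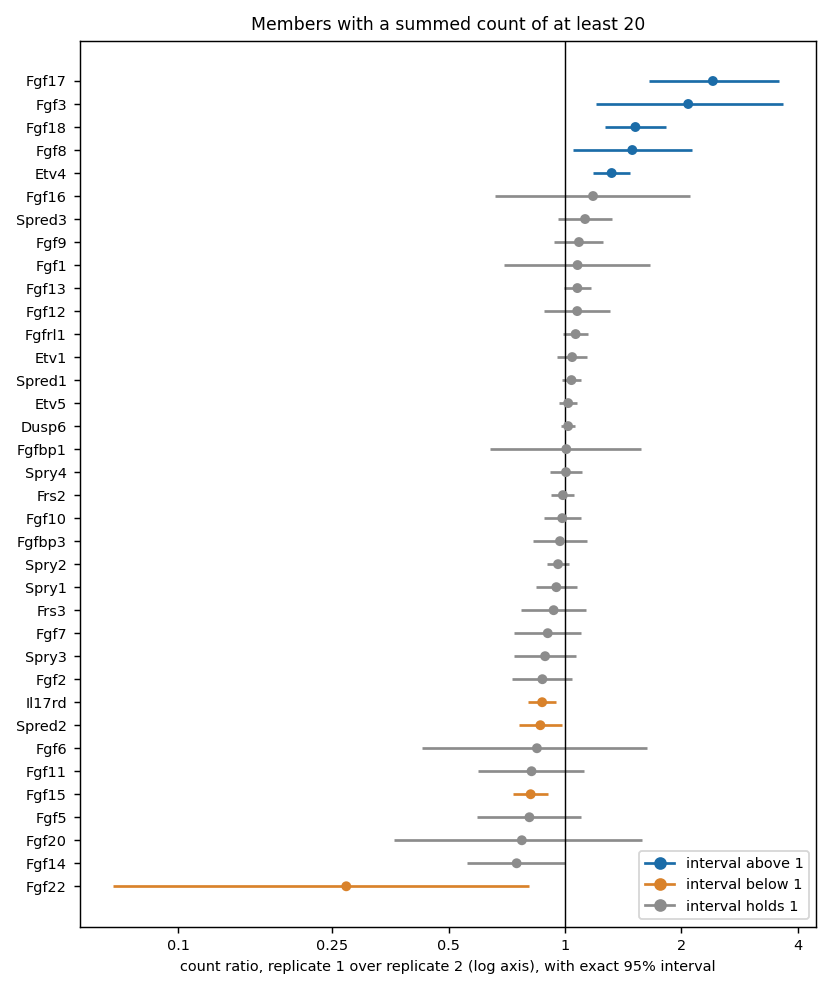
Count ratio of replicate 1 over replicate 2 for 36 members, on a log axis, with exact 95% intervals for counting error. Blue marks 5 members whose interval lies above 1, with Fgf17 at 2.41, orange 4 members below 1, and grey the 27 that hold 1.

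Gene lists measured beside the FGF8 subfamily also differed between the pools. Of 8 arch mesenchyme genes that FGF8 or the oral epithelium is known to induce, 8 had an interval above 1. Among all protein-coding genes with a summed count of at least 20, 14.7% did. The list had a median log2 TPM ratio of 0.44, and a part of the FGF8 subfamily in these ratios was not tested. Barx1, a homeobox gene of the proximal arch, had 168.11 TPM in replicate 1 and 83.93 TPM in replicate 2, Pitx1 had 122.91 and 77.42 TPM and Dlx1 had 68.30 and 51.13 TPM. The lowest of the list, Lhx6 (17.52 and 12.13 TPM) and Pax9 (15.70 and 12.74 TPM), were higher in replicate 1 as well. With counts scaled to genes, Fgfr3 had a ratio of 1.40 (1.28 to 1.53), while the intervals of the other 3 receptors held 1. By that scaling 1 of the 4 receptors was higher in replicate 1, but 3 of 4 were when scaled on the spike-ins.

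Some markers of other tissues were higher in replicate 1 too. Neuron markers were higher in replicate 1 in 10 of 10 genes, led by Tubb3 and Nefl, with sums of 604.2 TPM in replicate 1 and 467.8 TPM in replicate 2. Inner ear markers were higher in 4 of 4 by TPM, and in 3 of 4 by counts scaled with edgeR's TMM or DESeq2's size factors. Only 1 of the 4, Oc90, was detected, and it made up most of the sums of 42.8 and 18.95 TPM, with 40.93 and 17.87 TPM. Cartilage markers were higher in 5 of 6, with sums of 605.6 and 551.9 TPM. Erythroid markers were higher in 4 of 6 by TPM, with sums of 16259 TPM in replicate 1 and 14898 TPM in replicate 2. None of these genes was at 0 in either library. The arch, neuron and inner ear lists were higher in 8 of 8, 10 of 10 and 4 of 4 genes when scaled on the spike-ins. That setting was added for these lists, like the other count scalings, after seeing the data. It raises every ratio alike, and the same genes were already higher by counts scaled to genes. No gene of these lists could thus change side, so the setting is no check on them.

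Lower in replicate 1 were lens markers, in 6 of 6 genes with sums of 204.4 TPM in replicate 1 and 487.9 TPM in replicate 2, muscle markers, in 10 of 10 with sums of 472.4 and 586.0 TPM, and retina markers, in 5 of 6 with sums of 53.4 and 72.3 TPM. Forebrain sums were 47.4 and 45.1 TPM, midbrain-hindbrain boundary sums 1.82 and 2.33 TPM and pituitary sums 11.7 and 11.4 TPM. A boundary marker was listed at 0 in replicate 2. Scaled on the spike-ins, lens markers were lower in replicate 1 in 6 of 6 genes, muscle markers in 8 of 10 and retina markers in 5 of 6. Macrophage markers were lower in replicate 1 in 5 of 5 genes, but in 1 of 5 when scaled on the spike-ins. Their sums were 40.0 and 42.7 TPM, and endothelial sums 124.1 and 125.1 TPM. Epithelial and mesenchymal sums of TPM were nearly the same in both, as given above. Scaled on the spike-ins, 9 of 10 epithelial, 5 of 7 mesenchymal and 6 of 6 endothelial genes were higher in replicate 1. With counts scaled to genes, 6 of 10, 4 of 7 and 2 of 6 were. The part of these other tissues in the ratios of Fgf3, Fgf8, Fgf17, Fgf18, Fgf15 and Etv4 was not tested.

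**Figure D3:**
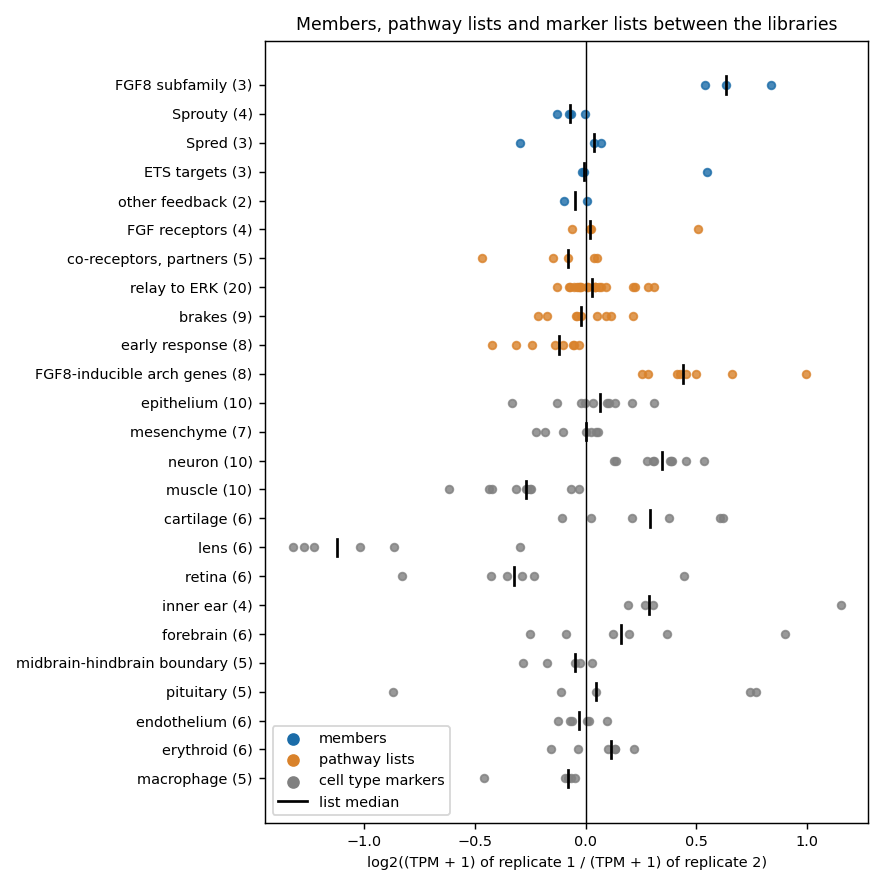
Log2 ratio of (TPM + 1), replicate 1 over replicate 2, for 5 groups of members (blue), the pathway lists (orange) and marker lists (grey), with 1 point per gene, the number of genes in brackets and black bars at list medians. The FGF8 subfamily and the 8 FGF8-inducible arch genes lie right of 0 in every point, as do the neuron and inner ear markers, while lens and muscle markers lie left of it. By counts, 1 inner ear marker changed side under TMM and DESeq2 scaling, and 2 of the 10 muscle markers did so under spike-in scaling.

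Leading transcripts were compared between the libraries for the other members as well. Of the 30 detected members, 4 have a single annotated transcript. Of the other 26, 21 had the same leading transcript in both libraries, and Fgf8, Fgf12, Spry1, Spred2 and Etv4 did not. This count has no share over all genes beside it, so it marks no trait of the members. Spry1-201 carried 59.9% in replicate 1 and 46.3% in replicate 2, and Spry1-203, which has the same coding length, 38.4% and 51.3%. Spred2-202 carried 55.0% and 37.7%, against 36.9% and 54.6% for Spred2-201, which has 6 exons where Spred2-202 has 7. Etv4-201, with a coding length of 1458 bases, carried 29.1% and 26.9%, and Etv4-202, with 1440 coding bases, 25.8% and 42.9%.

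Not all of a gene's TPM came from transcripts annotated as coding. In 6 detected members, Fgf7, Spred3, Etv1, Etv4, Frs2 and Frs3, coding transcripts carried under 80% in both libraries. How often other genes fall under that bound is not given here. For Etv4 the coding share was 64.9% in replicate 1 and 78.5% in replicate 2. Etv1-212, a retained intron transcript, carried 21.2% and 25.2% of Etv1. Frs2-201, the only coding Frs2 transcript, carried 58.5% and 57.5%.

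**Figure D4:**
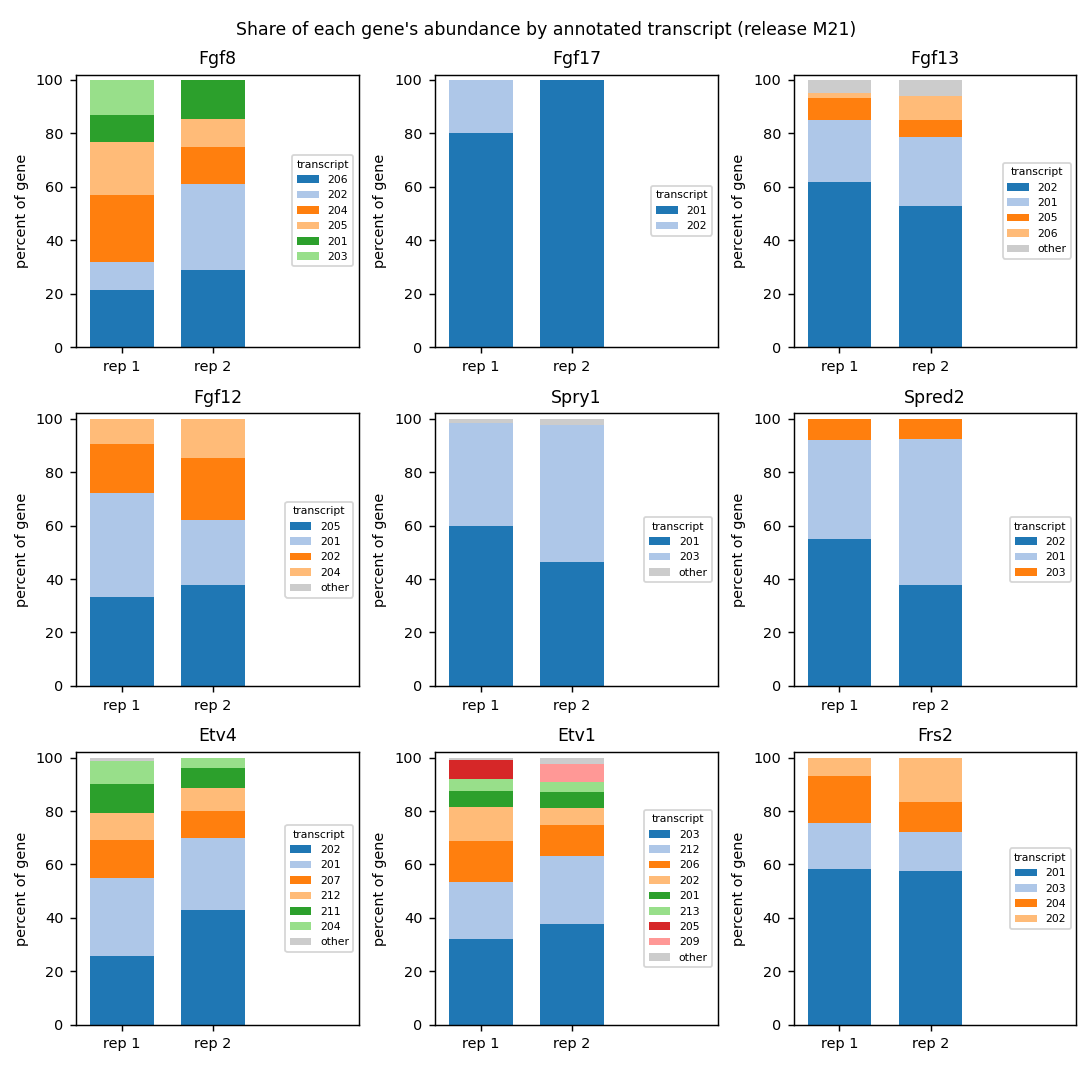
Percent of each gene's abundance by annotated transcript in replicate 1 (left bar) and replicate 2 (right bar) for 9 members, with transcripts under a mean of 3 percent joined as other. The order of the leading transcripts changes between the bars in Fgf8, Fgf12, Spry1, Spred2 and Etv4, and Frs2-201 stays at 58.5% and 57.5%.

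The same reads were quantified with the older annotation release M4, which had a row for 38 members. Past a log2 size of 0.5 in both libraries were 2 members, against 3.99% of protein-coding genes. Within 0.25 in both lay 33 of 38, again with no share over all genes to compare. Fgf12 had 4.49 TPM in replicate 1 under M21 against 2.01 TPM under M4, and 5.14 against 1.66 TPM in replicate 2. Its counts were 180 under M21 and 104 under M4 in replicate 1, and its effective length was 2175 and 2966 bases. More reads were thus spread over a shorter assigned length.

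Frs2 had 17.94 TPM under M21 and 12.26 TPM under M4 in replicate 1, and 19.04 and 13.08 TPM in replicate 2. Its counts moved less, with 1384 under M21 and 1196 under M4 in replicate 1. For Fgf2 the reads changed more than the TPM in replicate 1: 202 counts at an effective length of 5874 bases under M21, against 17 counts at 546 bases under M4, gave 1.87 and 1.78 TPM. In replicate 2 it had 2.58 TPM under M21 and 1.54 TPM under M4. Fgf2 also shares 640 exonic bases with the opposite-strand gene Nudt6. Of the 54 genes of the pathway lists, 2 passed the same size: the ubiquitin ligase gene Cblb, with 15.38 TPM under M21 and 9.25 TPM under M4 in replicate 1 and 17.98 and 11.07 TPM in replicate 2, and the AP-1 gene Fosl1, with 0.00 and 0.85 TPM in replicate 1 and 0.10 and 0.65 TPM in replicate 2.

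**Figure D5:**
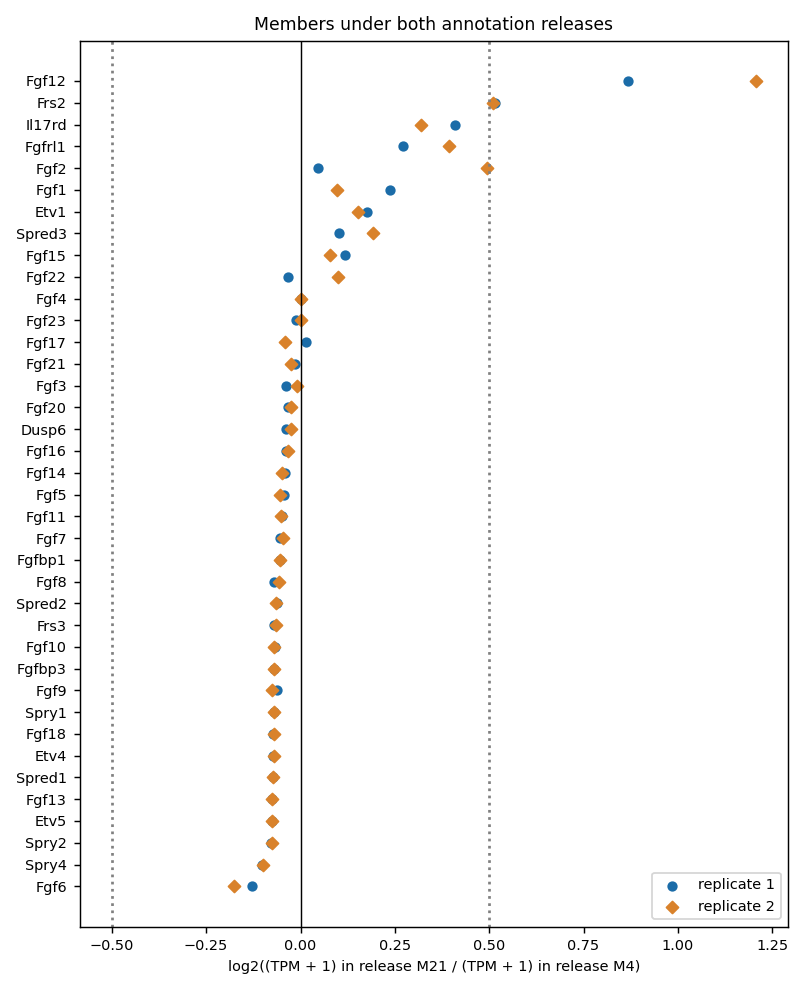
Log2 ratio of (TPM + 1) under release M21 over release M4 for 38 members, with circles for replicate 1, diamonds for replicate 2 and dotted lines at a size of 0.5. Fgf12 and Frs2 lie past the line in both libraries and most other members lie near 0.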

How the data were processed

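PolyA plus RNA-seq was deposited for 2 libraries of 1 tissue and age. Tables of genes and of transcripts on mm10 were given for each, made with GENCODE M21 and again with M4, per the deposited descriptions. No source used here names the aligner, the quantifier or the strand setting. The gene tables hold an expected count, TPM (maximum-likelihood and posterior mean) and FPKM, and the transcript tables the percent of a gene's abundance per transcript, per the file headers. Levels are the deposited TPM. The deposited expected count, rounded, gave the count ratios, the deposited FPKM 1 alternative, and the deposited isoform percent the transcript shares. Spike-in rows (2.85% and 3.10% of counts) and rows naming no gene (0.000139% and 0.000114%) stayed out of scaling.

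Genes were named through the GENCODE M21 annotation. Detection needed a TPM of 1 in both libraries, log ratios used a pseudocount of 1, and count ratios needed a summed count of 20. Intervals were run on simulated counts with counting error alone, which cannot show how they fare with PCR copies or variation between pools. Python 3.11.15, scipy 1.17.1, R 4.3.3, edgeR 4.0.16 (TMM) and DESeq2 1.42.0 (size factors) were used, the last 2 for scaling alternatives only. Alternatives covered thresholds, scaling, annotation release, estimator and leaving out each library.

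Of the pathway lists, the 3 highest and 2 lowest genes are named, with any past a log2 size of 1 between libraries or 0.5 between releases, and of the marker lists up to the 2 highest. The members, lists and rules were chosen with earlier results of these data known, so the differences between the pools are no independent support for any list. An item that these rules take is not reported here. RefSeq promoters were matched by symbol for 30 members.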

Additional observations from a re-analysis of the deposited data

How the results depend on the processing

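No paired analysis was possible because the 2 libraries form 1 group. The number of members detected ranged from 24 at a TPM minimum of 2 to 33 at a minimum of 0.5, with 29 in release M4, 26 by FPKM, 31 by the posterior mean TPM and 30 and 31 with 1 library left out. With a pseudocount of 0.1, 1 member, Fgf17, passed a log2 size of 1 between the libraries instead of 0. The spike-ins had a log2 TPM ratio of -0.14, replicate 1 over replicate 2, and scaling on them left 16 members with a count ratio interval that leaves out 1, 14 above and 2 below, against 9 in the report. The count was 10 with edgeR's TMM or DESeq2's size factors, where Fgf14 joined, and 8 in release M4. The same leading transcript in both libraries was found for 25 detected members in either release, in M21 with the 4 of a single transcript included, and for 26 by posterior mean percent, and leaving out a library gives no value there. The 2 members past 0.5 between releases stayed 2 under every alternative run. Depth limits Fgf4, Fgf21 and Fgf23, with at most 9 counts a library, and the Fgf8 transcript shares.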

Other observations

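Several members are genomic neighbours. Fgf3, Fgf4 and Fgf15 lie on chromosome 7, with 2931 bases between Fgf3 and Fgf4 and 31288 between Fgf4 and Fgf15. Their levels were unlike: Fgf15 averaged 21.4 TPM, Fgf3 0.655 TPM and Fgf4 0.09 TPM. Fgf6 (0.21 TPM) and Fgf23 (0.115 TPM) lie 44715 bases apart on chromosome 6, and both were near the floor. Fgf2 and Spry1 lie 229839 bases apart on chromosome 3, at 2.23 and 10.3 TPM.

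For 30 members RefSeq gave a promoter on GRCm38.p6, and the 250 bases upstream of the first start listed for each gene were read. The median number of CpG pairs was 11.5 over these members and 6 over all promoters. It was 16 over the 17 members at a mean of 5 TPM or more, with a range of 2 to 37, where the 2 belongs to a start of Fgf13 other than those of Fgf13-202 and Fgf13-201, and 9 over the 6 members under 1 TPM, with a range of 4 to 21, so the ranges overlapped. The ETS core CCGGAAG, searched on both strands, was found in 2 of the 30, Fgfrl1 and Frs2, and in 6.91% of all promoters.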
